A study of Xenopus laevis with 15 samples.

Results

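The higher and the lower of 2 lead exposures, named lead 630 and lead 210, were compared by RNA-seq of whole embryos of Xenopus laevis, a clawed frog widely used in developmental toxicology. The comparison used 10 of the 15 RNA-seq libraries of the study, 5 at each lead level, chosen by their labelled exposure alone. The lead 630 and lead 210 groups had both been kept in lead(II) nitrate from about Nieuwkoop and Faber stage 29, at 48 h after fertilization, for 96 h at 21 °C, and were taken at an age of 6 days. Control embryos of the same age had been kept without lead. All embryos came from an established breeding colony, and each library was made from RNA of 3 pooled whole individuals. No unit is attached to the exposures here, because the titles and the treatment protocol disagree on it (ng/L in the titles, µg/L in the protocol). The labels do not say whether pools within a group were drawn from different dishes or clutches; p-values therefore reflect variation among pools only, which may be partly technical. Of 37018 genes in the count table, 27060 had enough counts to be tested, and 3154 genes fell into at least 1 of 63 families of known function, with 148 of them in more than 1.

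Lead is a toxic metal that binds protein thiols and takes the place of zinc and calcium in proteins. Cells meet such metals and oxidants through several circuits. The factor NRF2, released from its inhibitor KEAP1, switches on glutathione synthesis, thioredoxin, NADPH supply and quinone reductases. The zinc sensor MTF1 switches on metallothionein, a small metal-binding protein. In the endoplasmic reticulum (ER), misfolded proteins switch on chaperones such as BiP, the product of hspa5. The gut, gills and skin of the tadpole, with their mucus and ion-transporting cells, are the surfaces that face the water.

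Total counts were 18.1 ± 5.91 M per library at lead 630 (M, counts in units of 1e+06; SD, n = 5; range 10.8 to 24.7 M) and 15.6 ± 3.81 M at lead 210 (n = 5; range 13.4 to 22.3 M). Values below are CPM, counts per 1e+06 counts after scaling, and 3 counts in a library corresponded to between 0.122 and 0.277 CPM in these 10 libraries, a floor that covers counting error only. The first principal component over the 10 libraries held 26.1% of the variance and the second 15.7%, and on neither did the groups separate. All 16 tissues examined had markers among the genes tested. Markers were looked up only among those genes, so that none was at 0 in all 10 libraries largely follows from the count filter. Markers sought but not found there included alb of liver, umod of kidney and csf1r of phagocytes. Exocrine pancreas markers ranged from 0.274 to 19.9 CPM in sum at lead 630 and from 0.531 to 21.8 CPM at lead 210. The lowest sum at lead 630 lay within the range of the 3-count floor. Most genes of this species exist as a homeolog pair, written .L and .S, and each copy was counted on its own. The sources used here do not say how reads matching both copies were assigned, so the values of near-identical copies are uncertain. In whole embryos, fewer cells of a type and less RNA per cell cannot be told apart.

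No gene passed the threshold of an adjusted p under 0.05 between lead 630 and lead 210, which is 0% of genes in either direction (edgeR quasi-likelihood test, Benjamini-Hochberg adjustment over 27060 genes). The smallest adjusted p was 0.261, for LOC100036818, and every other gene had one of at least 0.932. Without adjustment, 1260 genes (4.66%) had a p under 0.05, of which 579 (2.14%) were on the higher side at lead 630 and 681 (2.52%) on the lower side. When libraries were scaled by total counts alone, the split was 395 higher and 815 lower. DESeq2 called 2 genes higher and 4 lower at an adjusted p under 0.05, and limma-voom called none. In 100 genes (0.37%) all 5 lead 630 libraries lay above all 5 lead 210 libraries, and in 76 genes (0.281%) all 5 lay below. A p that misses the threshold does not show that the exposures act alike. The 95% interval of the log2 fold change (lead 630 over lead 210) bounds the difference for each gene, and it lay within a 2-fold change either way for 25420 genes (93.9%) and within a 1.5-fold change for 20433. The median log2 fold change over all genes was 0.004, with the middle 50% between -0.097 and 0.088 and a median SE of 0.126. Where a gene is said to be at a value, that value is its log2 fold change, followed in parentheses by its 95% interval, which is for the single gene and not adjusted for the number of genes. The adjusted p (edgeR quasi-likelihood, Benjamini-Hochberg) was 0.932 for every gene named below except where another value is given.

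**Figure D1:**
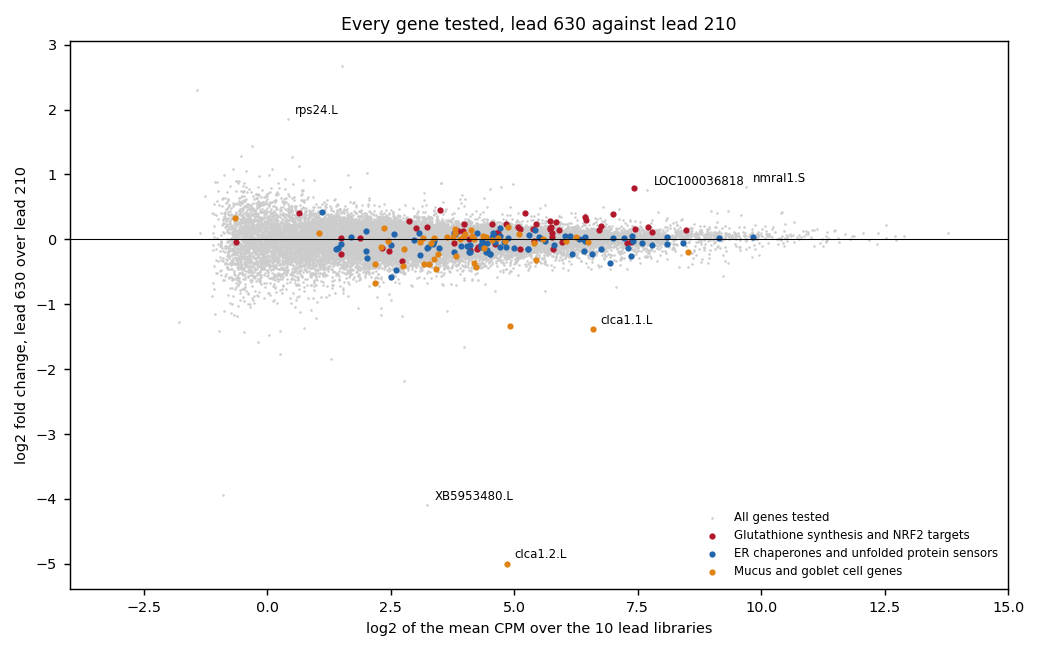
Each point is 1 of the 27060 genes tested, with its mean level over the lead libraries (log2 CPM) across and its log2 fold change, lead 630 over lead 210, upward; red points are glutathione and NRF2 target genes, blue points ER chaperones and sensors, and orange points mucus and goblet cell genes. Most genes lie close to 0 (median 0.004), and the labelled genes, picked after their values were seen, include LOC100036818 above it and clca1.2.L and clca1.1.L below it.

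The gene with the smallest p, LOC100036818, is annotated only as an uncharacterized protein. It had 339, 248, 233, 277 and 191 CPM in lead 630 libraries A to E, against 163, 124, 159, 163 and 151 CPM in lead 210 libraries A to E. Every lead 630 library lay above every lead 210 library, and the log2 fold change was 0.76 (95% interval 0.503 to 1.02), with an adjusted p of 0.261 in edgeR's quasi-likelihood test. Controls averaged 29.4 ± 3.07 CPM (SD, n = 5), and the log2 fold change against control was 3.13 at lead 630 and 2.37 at lead 210. The comparisons of each lead level with control share the control libraries, and their values are set beside each other only as levels. DESeq2 called this gene (adjusted p 7.76e-05), and edgeR's quasi-likelihood test called it when lead 630 library E was left out (log2 fold change 0.85, adjusted p 0.012).

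Among genes with an established symbol, the smallest p on the higher side belonged to higd1a.S, which encodes a hypoxia-inducible protein of the mitochondrial inner membrane. It had 20.04, 22.9, 15.6, 18.4 and 14.1 CPM in lead 630 libraries A to E, against 12.9, 9.73, 13.3, 11.9 and 11.2 CPM in lead 210 libraries A to E. The groups did not overlap, the log2 fold change was 0.61 (95% interval 0.36 to 0.87), and DESeq2 called it (adjusted p 0.0252). Controls averaged 5.55 ± 0.477 CPM, below both lead groups. The next by p were dcc.L, a netrin receptor of growing axons, at 0.52 (95% interval 0.24 to 0.8), and cnr1.L, the neuronal cannabinoid receptor, at 0.42 (95% interval 0.19 to 0.65). Neither gene's groups overlapped, but the nearest values lay close together. They were 4.656 CPM at lead 630 and 4.645 CPM at lead 210 for dcc.L, and 9.18 and 9.02 CPM for cnr1.L. For dcc.L the lead 630 libraries averaged close to control: 5.67 ± 0.715 CPM at lead 630 and 3.93 ± 0.533 CPM at lead 210, with 5.48 ± 0.673 CPM in controls. The list continued with nqo1.L and cbr1.2.L, described with the NRF2 targets and the reductases, and with soat1.L, which esterifies cholesterol, at 0.55 (95% interval 0.24 to 0.85).

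On the lower side the smallest p belonged to sdc4.S, encoding the cell surface proteoglycan syndecan-4. It had 15.3, 13.8, 16.1, 13.4 and 10.5 CPM in lead 630 libraries A to E, against 26.1, 21.1, 17.6, 21.3 and 20.3 CPM in lead 210 libraries A to E, without overlap, and a log2 fold change of -0.62 (95% interval -0.897 to -0.35). DESeq2 called it lower (adjusted p 0.03), and controls lay between the lead groups at 18.1 ± 2.97 CPM. After hspa5.S, described with the ER chaperones, came elovl3.L, a fatty acid elongase, at -0.82 (95% interval -1.204 to -0.43), and st8sia6.L, a sialyltransferase, at -1.37 (95% interval -2.04 to -0.69). The gene st8sia6.L is scarce: its libraries had 0.458, 0.966, 1.34, 0.907 and 0.828 CPM at lead 630 and 2.32, 2.12, 1.99, 1.91 and 3.78 CPM at lead 210. The lower side also held tpte2.S, a phosphoinositide phosphatase, at -0.45 (95% interval -0.67 to -0.23), and clca1.2.L, described with the mucus genes. In elovl3.L, st8sia6.L and tpte2.S all lead 630 libraries lay below all lead 210 libraries.

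Genes outside the fixed naming rule are also named here, in every paragraph below, and were chosen after their values were seen. Among them, LOC108705058, annotated as guanylin-like after a gut peptide that controls salt and water secretion in mammals, had 12.3, 16.7, 15.8, 17.7 and 11.6 CPM in lead 630 libraries A to E, against 10, 8.27, 7.004, 8.86 and 6.57 CPM in lead 210 libraries A to E. Its groups did not overlap, the log2 fold change was 0.86 (95% interval 0.402 to 1.33), and controls averaged 1.39 ± 0.763 CPM. LOC108711814, annotated as ClC-Kb-like after a kidney chloride channel, was likewise without overlap at 0.71 (95% interval 0.32 to 1.1). The Src-family kinase lyn.S, used by blood cells, had a log2 fold change of -1.06 (95% interval -1.696 to -0.42), with all lead 630 libraries below all lead 210 libraries.

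Genes that respond to lead as such were examined as lists defined by both lead levels averaged against control, which weights the levels equally. Of the 700 genes higher with lead than in control (2.59% of all genes; edgeR quasi-likelihood, adjusted p under 0.05), 439 had a positive log2 fold change between lead 630 and lead 210, with a median of 0.046. Of these 700, 76 had an unadjusted p under 0.05 on the higher side and 20 on the lower. For the 161 that were at least 2-fold higher with lead, 116 were positive, the median was 0.19, and 42 had an unadjusted p under 0.05 on the higher side and 4 on the lower. The median log2 fold change of those 161 against control was 1.64 at lead 630 and 1.57 at lead 210, values that the selection itself used. Of the 120 genes lower with lead (0.443% of all genes), 38 were positive, the median was -0.069, and 2 had an unadjusted p under 0.05 on the higher side and 11 on the lower. Of the 11 genes at least 2-fold lower with lead, 3 were positive, the median was -0.38, and 3 had an unadjusted p under 0.05, all on the lower side. Over all genes, 13826 of 27060 were positive. These lists were chosen after the values were seen, from the same lead libraries that are compared here. They are no separate support for an order of the lead levels.

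**Figure D2:**
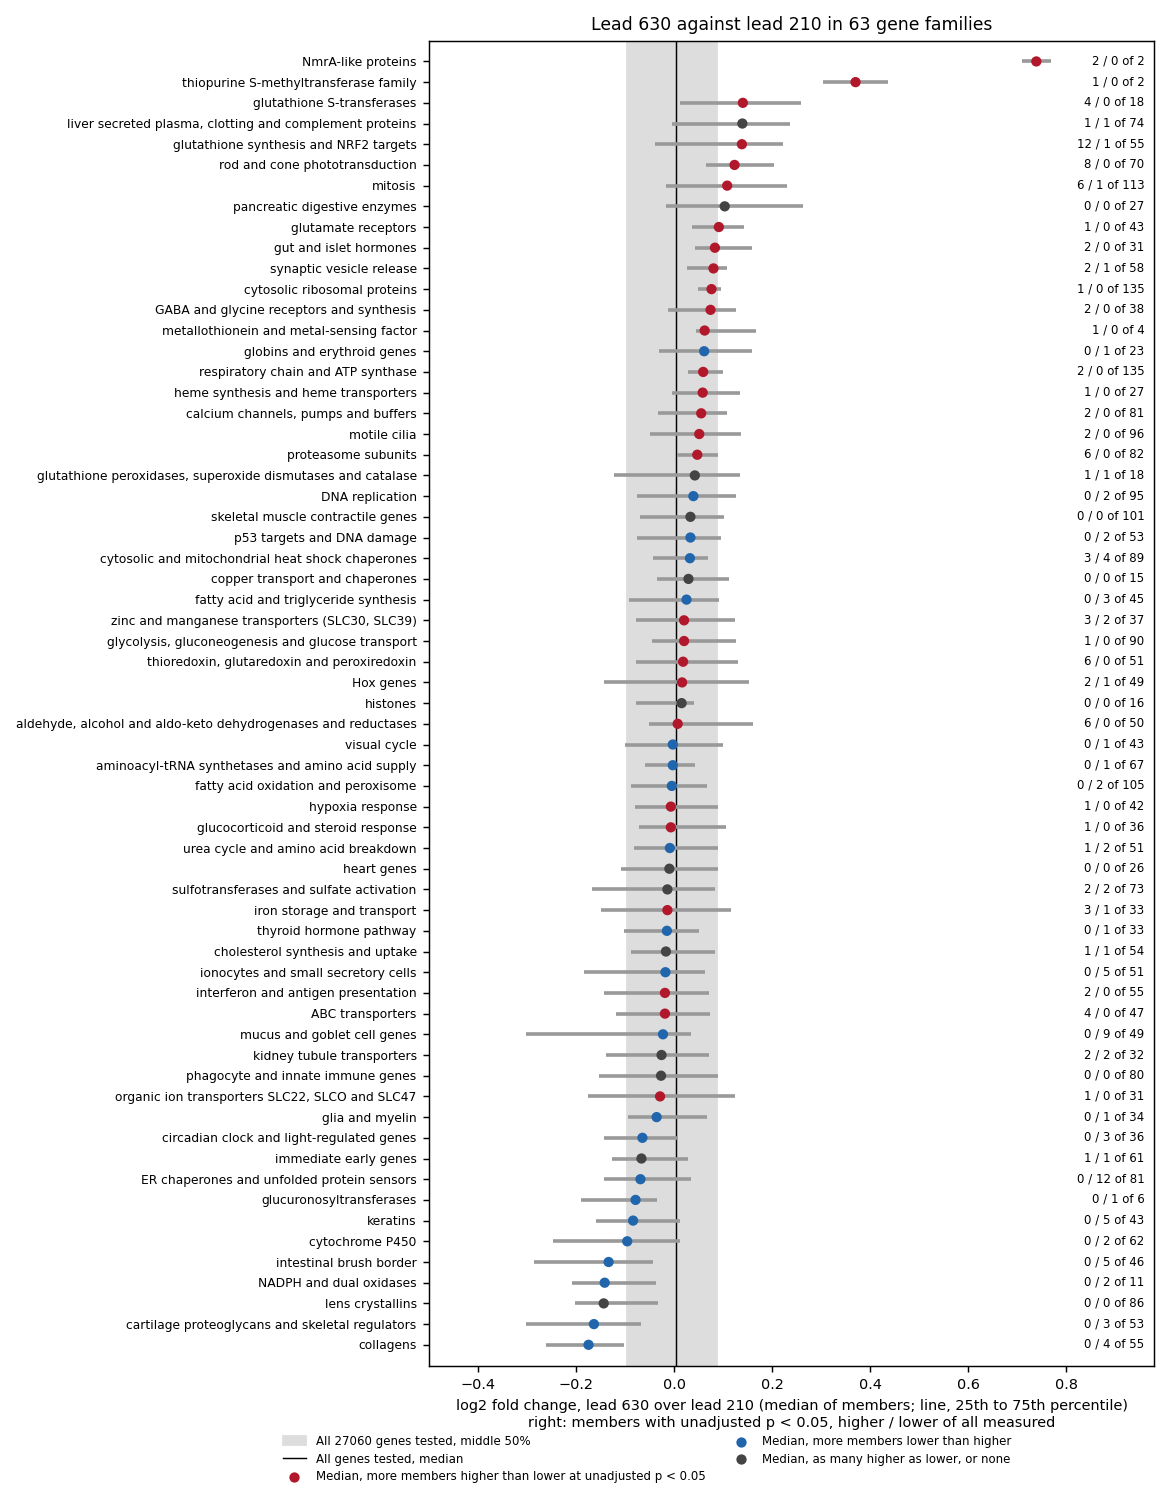
Each row is 1 of 63 gene families; the point is the median log2 fold change of its measured members, lead 630 over lead 210, the line spans the 25th to the 75th percentile of members, and the grey band spans the middle 50% of all genes (-0.097 to 0.088). Numbers at the right count members with an unadjusted p under 0.05 on the higher and the lower side; red rows have more on the higher side, blue rows more on the lower side. NmrA-like proteins, with 2 members, have the highest median (0.74), and collagens the lowest with all libraries (-0.175).

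By family, the sides differed. Members with an unadjusted p under 0.05 lay mostly on the higher side in several families. Among these were glutathione synthesis and NRF2 targets, glutathione S-transferases, redoxins, and aldehyde, alcohol and aldo-keto dehydrogenases and reductases. ABC transporters, photoreceptors, mitosis and proteasome were also among them. Such members lay on the lower side in ER chaperones, mucus, intestinal brush border, NADPH and dual oxidases, collagens, keratins, ionocytes and clock genes, among others. These families were picked after their values were seen, and the lists are not complete. Some genes count in more than 1 family, so the counts are not separate from each other. The largest log2 fold change was 0.786 in both the NRF2 targets and the dehydrogenases and reductases, the value of akr1c2.L. Some of these counts rested on single libraries. The higher count was 1 for proteasome without lead 210 A and 1 for ABC transporters without lead 210 B. The lower count was 0 for keratins without lead 630 E. The background moves with single libraries too: without lead 210 library E it was 968 genes on the higher side and 1205 on the lower, without lead 630 A it was 800 and 1172, and without lead 210 A it was 380 and 455. Families are described below by counts, read against the background of 2.14% higher and 2.52% lower among all genes. Many, but not all, are also described by the median of their log2 fold changes.

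Among the metal-handling genes, mt4.L is the metallothionein measured here. It had 783, 859, 562, 804 and 667 CPM in lead 630 libraries A to E, against 426, 533, 589.6, 438 and 729 CPM in lead 210 libraries A to E. Lead 630 was above all lead 210 libraries in 3 of 5 libraries, so the groups overlapped, with a log2 fold change of 0.44 (95% interval 0.13 to 0.74). Controls averaged 95.4 ± 11.96 CPM, and the log2 fold change against control was 2.95 at lead 630 and 2.51 at lead 210. The sensor mtf1.L, which drives metallothionein, was at 0.076 (95% interval -0.12 to 0.27), with an edgeR quasi-likelihood adjusted p of 0.935. The 4 measured genes of metallothionein and metal sensing had a median of 0.062.

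Among 37 zinc and manganese transporters, 3 had an unadjusted p under 0.05 on the higher side and 2 on the lower, around a median of 0.02. With single libraries left out the counts were 1 to 3 and 0 to 2. The log2 fold change of slc30a1.L, the zinc exporter of the plasma membrane, was 0.16 (95% interval 0.032 to 0.29), from 51.7 ± 4.37 CPM at lead 630 and 46.2 ± 2.25 CPM at lead 210 (SD, n = 5 each), and its homeolog slc30a1.S was at 0.104 (-0.081 to 0.29). The vesicular zinc transporter slc30a2.L was at 0.64 (95% interval 0.041 to 1.23), and the manganese exporter slc30a10.L at -0.299 (95% interval -0.56 to -0.033). The zinc importer slc39a4.S did not differ beyond its spread, at 0.030 (95% interval -0.45 to 0.51), with an edgeR quasi-likelihood adjusted p of 0.993, while both lead means lay below control: 12.9 ± 3.89 CPM at lead 630 and 12.8 ± 1.87 CPM at lead 210, with 29.1 ± 9.45 CPM in controls. None of 15 copper transporters and chaperones had an unadjusted p under 0.05, and their median was 0.029. The copper chaperone of superoxide dismutase, ccs.L, had the smallest p, at -0.13 (95% interval -0.27 to 0.018).

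Of 33 iron genes, 15 were positive and the median was -0.014. An unadjusted p under 0.05 was found for 3 on the higher side and 1 on the lower, with 1 to 4 and 0 to 2 when single libraries were left out. The highest log2 fold change was that of a ferritin. This gene, fth1.2.L, encodes a heavy chain of the iron storage shell and had 1421, 1583, 1338, 1950 and 1379 CPM in lead 630 libraries A to E, against 1132, 1188, 1063, 896 and 1478 CPM in lead 210 libraries A to E. Only lead 210 library E reached into the range of lead 630, and the log2 fold change was 0.41 (95% interval 0.14 to 0.69). A second ferritin gene, fth1.1.L, was at 0.27 (95% interval 0.018 to 0.52), whereas slc25a37.S, which brings iron into mitochondria, was at -0.61 (95% interval -1.19 to -0.034). Among 27 heme synthesis genes the median was 0.058 and 1 was on the higher side, abcb10.S, a mitochondrial transporter needed for heme formation, at 0.24 (95% interval 0.017 to 0.46). The enzyme delta-aminolevulinate dehydratase, which lead inhibits, is encoded by alad.L and alad.S, and neither differed beyond its spread, at 0.1 (-0.12 to 0.32) and -0.052 (-0.44 to 0.33); the adjusted p of alad.S was 0.981 (edgeR quasi-likelihood). Heme oxygenase, which breaks heme down, was at 0.099 (-0.13 to 0.33) for hmox1.L and 0.14 (-0.102 to 0.37) for hmox1.S. Of 23 globin and erythroid genes, with a median of 0.061, 1 was on the lower side, the scarce hbz.L, at -0.99 (95% interval -1.84 to -0.14).

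Genes of glutathione synthesis and other NRF2 targets lay higher at lead 630 than at lead 210 in the median, by 0.14 on the log2 scale, with 39 of 55 measured members positive. Of these 55, 12 had an unadjusted p under 0.05 on the higher side (background 2.14%) and 1 on the lower (background 2.52%). The family score, the mean deviation of members' log2 CPM from their mean over the 10 libraries, was 0.057 ± 0.113 at lead 630 and -0.057 ± 0.063 at lead 210 (SD, n = 5 each). Lead 630 library E scored -0.131, the lowest of all 10, and lead 210 library E scored 0.042, the highest of its group. The count of 12 ranged from 5 without lead 630 library D to 21 without lead 210 library E, and was 7 without lead 630 A, lead 210 A or lead 210 D and 6 without lead 630 B. It was also 7 when libraries were scaled by total counts. Against control, the family median was 0.69 at lead 630 and 0.53 at lead 210.

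The quinone reductase nqo1.L had 91.9, 111, 92.1, 109 and 78.9 CPM in lead 630 libraries A to E, against 69.4, 81.3, 69.4, 70.3 and 88.6 CPM in lead 210 libraries A to E. Of the lead 630 libraries, 4 lay above all of lead 210, and the log2 fold change was 0.35 (95% interval 0.16 to 0.54). Controls averaged 36.6 ± 1.82 CPM. Glutathione synthesis starts with glutamate-cysteine ligase, whose catalytic subunit gclc.S had 61.2, 61.98, 57.2, 59.3 and 49.7 CPM at lead 630 and 37.6, 46.8, 47.7, 48.03 and 56.98 CPM at lead 210, a log2 fold change of 0.28 (95% interval 0.083 to 0.49). In gclc.S, too, 4 of the lead 630 libraries lay above all of lead 210. Its homeolog gclc.L was at 0.11 (-0.16 to 0.37), with an edgeR quasi-likelihood adjusted p of 0.935, and the modifier subunit gclm.L at 0.21 (-0.14 to 0.57); in both, lead 210 library E held the highest value of all 10. Glutathione reductase, gsr.L, was at 0.303 (95% interval 0.017 to 0.59). NADPH-supplying enzymes included tkt.L, a transketolase, at 0.18 (0.009 to 0.36), pgd.L, phosphogluconate dehydrogenase, at 0.15 (0.004 to 0.31), and me1.L, malic enzyme, at 0.14 (0.005 to 0.28).

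Thioredoxin, txn.L, had 117, 168, 129.7, 187 and 128 CPM at lead 630 and 103, 95.4, 96.1, 106 and 157 CPM at lead 210. Lead 210 library E stood above 3 of the lead 630 libraries, and the log2 fold change was 0.39 (95% interval 0.072 to 0.7). Thioredoxin reductase was at 0.23 (-0.032 to 0.5) for txnrd1.L and -0.063 (-0.47 to 0.34) for txnrd1.S (edgeR quasi-likelihood adjusted p of the second 0.974). The small MAF protein mafg.L, a partner of NRF2 on DNA, was at 0.28 (95% interval 0.050 to 0.501). The gene of NRF2 itself, nfe2l2.L, was at -0.056 (-0.21 to 0.099), with an edgeR quasi-likelihood adjusted p of 0.943, its inhibitor keap1.L at -0.12 (-0.35 to 0.11), and the autophagy adaptor sqstm1.L, an NRF2 target, at 0.15 (-0.076 to 0.38). The member on the lower side was gpx2.L, a glutathione peroxidase of the gut lining, at -0.34 (95% interval -0.64 to -0.037). Another peroxidase, gpx1.S, was at 0.39 (95% interval 0.16 to 0.62), but summing its homeologs gave -0.016.

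Glutathione S-transferases, which attach glutathione to foreign and oxidized compounds, had 14 of 18 measured members positive, a median of 0.14 and 4 members with an unadjusted p under 0.05, all on the higher side. Leaving out any library kept that count between 4 and 6. The largest log2 fold change of the 4 was that of gsto1.S, an omega class enzyme, with 21.5, 46.6, 34.3, 37.9 and 27.3 CPM at lead 630 and 19.9, 23.1, 21.7, 13.9 and 17.9 CPM at lead 210 and a log2 fold change of 0.81 (95% interval 0.17 to 1.44). The other three were gstt1.L at 0.31 (0.068 to 0.55), gsta1.L at 0.36 (0.093 to 0.64) and hpgds.S, a prostaglandin D synthase, at 0.197 (0.054 to 0.34). In gsta1.L, lead 210 library E reached 74.6 CPM beside 44.7 to 48.6 CPM in the other lead 210 libraries, and no lead 630 library lay above it. The pi class gene gstp1.L averaged 506 ± 126 CPM at lead 630 and 466 ± 78.4 CPM at lead 210, with 27.4 ± 21.04 CPM in controls, and its log2 fold change between lead levels was 0.12 (95% interval -0.66 to 0.89), with an edgeR quasi-likelihood adjusted p of 0.976.

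The NmrA-like proteins, redox sensors that bind NADPH in human cells, are encoded by nmral1.S and nmral1.L. The first had 906, 1458, 766, 1373 and 720.4 CPM in lead 630 libraries A to E, against 583, 665, 499, 384 and 869 CPM in lead 210 libraries A to E. Lead 210 library E lay within the lead 630 range, the log2 fold change was 0.8 (95% interval 0.102 to 1.497), and controls averaged 46.8 ± 23.8 CPM. The second, nmral1.L, averaged 19.02 ± 3.52 CPM at lead 630 and 11.9 ± 4.73 CPM at lead 210, with a log2 fold change of 0.68 (95% interval 0.18 to 1.18) and 0.34 ± 0.251 CPM in controls.

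Of 51 thioredoxins, glutaredoxins and peroxiredoxins, 6 had an unadjusted p under 0.05, all on the higher side, around a median of 0.018, or -0.002 with total-count scaling. Glutaredoxins reduce protein-glutathione disulfides, and glrx.S had 114, 104, 106, 141 and 99.5 CPM at lead 630 and 88.4, 89.6, 99.01, 78.8 and 97.3 CPM at lead 210, without overlap, and a log2 fold change of 0.32 (95% interval 0.12 to 0.52). Its homeolog glrx.L was at 0.303 (0.072 to 0.54) and glrx5.L, a glutaredoxin of mitochondrial iron-sulfur assembly, at 0.19 (0.043 to 0.34). The count of 6 became 2 without lead 630 library D, 4 without lead 630 B or C or lead 210 A or B, and 9 without lead 210 E.

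Among 50 aldehyde, alcohol and aldo-keto dehydrogenases and reductases, 6 were on the higher side and none on the lower, with a median of 0.007, or -0.012 with total-count scaling and -0.027 without lead 210 library E. They were carbonyl and aldo-keto reductases, which remove reactive carbonyls. The carbonyl reductase cbr1.2.L had 18.6, 38.2, 23.3, 42.2 and 20.7 CPM in lead 630 libraries A to E, against 15.2, 17.5, 17.6, 15.6 and 17.4 CPM in lead 210 libraries A to E. All lead 630 libraries lay above all lead 210 libraries, with B and D far above the others, and the log2 fold change was 0.78 (95% interval 0.35 to 1.21). Other carbonyl reductases were cbr1.1.L at 0.44 (0.085 to 0.79) and cbr1.1.S at 0.24 (0.070 to 0.41). The aldo-keto reductase akr1c2.L had 136, 273, 148, 362 and 161 CPM at lead 630 and 124, 211, 99.6, 98.7 and 94.4 CPM at lead 210, and its log2 fold change was 0.79 (95% interval 0.15 to 1.42). Libraries B and D held the top values of akr1c2.L at lead 630, and library B the top value at lead 210. The count of 6 became 3 without lead 630 library D or lead 210 library D, and 4 without lead 210 C.

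**Figure D3:**
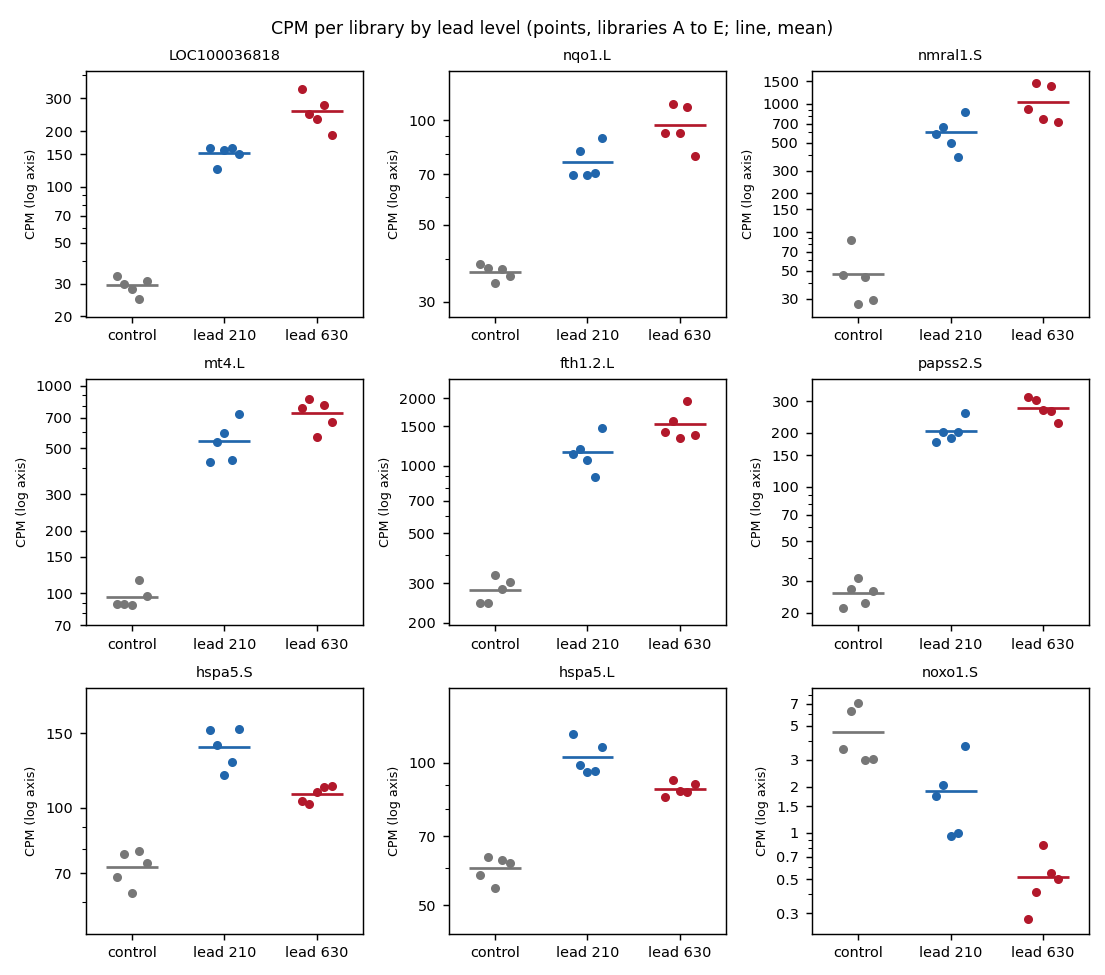
CPM per library (log axis) is plotted for control, lead 210 and lead 630 in turn for LOC100036818, nqo1.L, nmral1.S, mt4.L, fth1.2.L, papss2.S, hspa5.S, hspa5.L and noxo1.S, each point being 1 library of 3 pooled embryos. In hspa5.S and hspa5.L the lead 210 libraries are the highest of the 3 groups, and in noxo1.S the lead 630 libraries are the lowest; the genes were picked after their values were seen.

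Conjugating enzymes and transporters were mixed. Sulfate activation is carried out by PAPS synthase, and papss2.S had 317, 305, 266, 264 and 226 CPM in lead 630 libraries A to E, against 177, 202, 187, 201 and 258 CPM in lead 210 libraries A to E. Lead 630 libraries A to D lay above all of lead 210 and E did not, and the log2 fold change was 0.43 (95% interval 0.19 to 0.67), with 25.7 ± 3.84 CPM in controls. Among all 73 sulfotransferase and sulfate genes, 2 had an unadjusted p under 0.05 on each side, and the median was -0.014. Leaving out single libraries gave 1 to 4 of them on the higher side, the 4 without lead 210 library E, and 0 to 5 on the lower, the 5 without lead 630 C. LOC108704455, annotated as a thiopurine S-methyltransferase, averaged 131 ± 12.9 CPM at lead 630 and 92.3 ± 23.1 CPM at lead 210, with 4.68 ± 1.43 CPM in controls and a log2 fold change between lead levels of 0.51 (95% interval 0.14 to 0.87), and tpmt.L was at 0.23 (-0.069 to 0.54). The organic anion transporter slc22a6.S, a kidney uptake carrier, was at 0.52 (95% interval 0.099 to 0.94), the only 1 of 31 organic ion transporters with an unadjusted p under 0.05. The median of the organic ion transporters was -0.029, and -0.087 to 0.048 with single libraries left out. Without lead 630 library A, 4 of these transporters were on the lower side. Glucuronidation genes numbered 6, with ugdh.L, which makes the glucuronide donor, on the lower side at -0.305 (95% interval -0.55 to -0.060), and ugt1a1.L at 0.18 (-0.13 to 0.49). Of 62 cytochromes P450, 18 were positive, the median was -0.096 and 2 were on the lower side. These were the scarce cyp1b1.S at -0.9 (-1.54 to -0.26) and cyp4b1.2.L at -0.16 (-0.31 to -0.012). The count was 9 without lead 210 library E, 6 without lead 630 A or B, 5 without lead 630 C and 1 without lead 630 E or lead 210 A. Of 47 ABC transporters, 21 were positive, the median was -0.019 and 4 were on the higher side. The smallest p was that of abcf3.L, a cytoplasmic member of the family, at 0.19 (95% interval 0.076 to 0.302). That count of 4 was 1 without lead 210 B or C, 2 without lead 630 E and 1 with total-count scaling.

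ER chaperones and sensors of unfolded protein lay lower at lead 630 than at lead 210 in the median. Of 81 measured members, 12 had an unadjusted p under 0.05 on the lower side (background 2.52%) and none on the higher, 29 were positive, and the median was -0.069. In 6 of the 81 all lead 630 libraries lay below all lead 210 libraries (background 0.281%). The family score was -0.033 ± 0.069 at lead 630 and 0.033 ± 0.047 at lead 210 (SD, n = 5 each), so the groups overlapped in the family as a whole. The count of 12 was 8 without lead 630 library A or lead 210 library A, and 10 to 16 without any other, and the median ranged from -0.089 to -0.027 with single libraries left out.

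The gene of BiP, the main ER chaperone, was measured as hspa5.S and hspa5.L. The first had 104, 102, 109, 112 and 113 CPM in lead 630 libraries A to E, against 152, 141, 119, 128 and 154 CPM in lead 210 libraries A to E. Its groups did not overlap, and the log2 fold change was -0.36 (95% interval -0.52 to -0.202). The second had 84.9, 91.9, 87.3, 86.8 and 90.3 CPM in lead 630 libraries A to E, against 115, 98.8, 95.7, 95.9 and 108 CPM in lead 210 libraries A to E, also without overlap, at -0.22 (95% interval -0.35 to -0.088). Both lead groups were above control in both copies, since controls averaged 72.5 ± 6.63 CPM for hspa5.S and 59.9 ± 3.63 CPM for hspa5.L. Another chaperone of the ER lumen, GRP94, is encoded by hsp90b1.L, at -0.25 (95% interval -0.396 to -0.105), and hsp90b1.S, at -0.15 (95% interval -0.29 to -0.008). For hsp90b1.S no lead 630 library reached the lowest of lead 210, but the nearest values, 107.9 CPM at lead 630 and 108.3 CPM at lead 210, lay close together.

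Other members on the lower side were dnajc10.S, an ER disulfide reductase, at -0.47 (-0.74 to -0.2), and creld2.S, an ER stress-inducible protein, at -0.57 (-0.89 to -0.25). They included sel1l.L, at -0.22 (-0.37 to -0.073), and herpud1.L, at -0.15 (-0.28 to -0.014), both parts of the machinery that exports misfolded protein for degradation. The chaperones pdia4.L, dnajb9.S and hyou1.S were at -0.23 (-0.41 to -0.053), -0.23 (-0.41 to -0.040) and -0.17 (-0.32 to -0.019). All lead 630 libraries lay below all lead 210 libraries in dnajc10.S, sel1l.L and herpud1.L. Some transcription factors of the ER stress response lay nearer 0. The factor xbp1.L was at -0.031 (-0.28 to 0.22), with an edgeR quasi-likelihood adjusted p of 0.984. The factor atf4.L was at 0.014 (-0.14 to 0.17), with an adjusted p of 0.99 in the same edgeR test, and the stress-induced ddit3.L at 0.099 (-0.12 to 0.32). The calcium-binding chaperone calr.L was at -0.063 (-0.21 to 0.085). Among 89 cytosolic and mitochondrial heat shock chaperones, 4 were on the lower side, 3 of them the ER members hspa5.S, hspa5.L and dnajb9.S, and 3 on the higher; the lower count was 7 without lead 630 library B and 2 without lead 630 D or E. The higher count of these heat shock chaperones was 0 without lead 210 library B and 0 with total-count scaling, and 1 without lead 630 B or E or lead 210 A or C.

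Mucus and goblet cell genes held the most negative log2 fold change of any family member, that of clca1.2.L. Of 49 measured members (59 listed), 9 had an unadjusted p under 0.05 on the lower side and none on the higher, although the median was -0.023 and 22 members were positive. The score was -0.121 ± 0.114 at lead 630 and 0.121 ± 0.089 at lead 210 (SD, n = 5 each). That count of 9 was 5 without lead 210 library B, 6 without lead 630 library E and up to 12 without another. The gene clca1.2.L belongs to a family of secreted proteins that goblet cells make in mammals. It had 3.29, 0, 0.6704, 2.66 and 2.402 CPM in lead 630 libraries A to E, against 44.9, 44.3, 40.8, 2.82 and 146 CPM in lead 210 libraries A to E. Lead 210 library D lay within the lead 630 range, and the log2 fold change was -4.996 (95% interval -7.41 to -2.58). The level also varied widely in controls, at 65.7 ± 52.4 CPM. DESeq2 called it lower (adjusted p 0.00258).

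A relative, clca1.1.L, had 74.3, 36.3, 69.97, 41.1 and 48.3 CPM in lead 630 libraries A to E, against 182, 129, 136, 98.6 and 157 CPM in lead 210 libraries A to E, without overlap, and a log2 fold change of -1.38 (95% interval -2.09 to -0.67), with 146 ± 80.4 CPM in controls. The gene XB5953480.L, uncharacterized in the authors' deposited table and in none of the families, had 0.549, 0.759, 1.72, 0.363 and 1.32 CPM at lead 630 and 11.02, 13.6, 7.82, 2.73 and 54.2 CPM at lead 210, without overlap, at -4.09 (95% interval -6.62 to -1.56). LOC108711738, annotated as mucin-3B-like after a membrane mucin, had 0.0915, 0.138, 0, 0.0605 and 0.0414 CPM at lead 630 and 1.09, 0.951, 1.11, 0.136 and 1.73 CPM at lead 210. At lead 630 all its libraries were at or under the floor of 3 counts, so its fitted log2 fold change of -3.94 depends on the prior of the fit and is no bound. DESeq2 called both, with adjusted p 0.00258 for XB5953480.L and 0.0162 for LOC108711738. The enzymes galnt3.L and galnt12.L, which start the sugar chains of mucins, were at -0.41 (-0.701 to -0.13) and -0.43 (-0.75 to -0.11), and clca3p.L at -0.32 (-0.59 to -0.053). Other genes of mucus cells lay nearer 0: agr2.L, a disulfide isomerase needed for mucin folding, was at 0.031 (-0.33 to 0.396), with an edgeR quasi-likelihood adjusted p of 0.991, agr2.S at -0.033 (-0.33 to 0.26), with an adjusted p of 0.985 in the same edgeR test, and otogl2.L at -0.19 (-0.38 to 0.005). The 4 markers of mucus cells summed to between 409 and 575 CPM at lead 630 and between 570 and 579 CPM at lead 210, and their part in these results was not tested.

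The tetraspan gene tm4sf20.L, listed for both mucus and gut, had 17.8, 16.8, 15.6, 21.04 and 14.3 CPM in lead 630 libraries A to E, against 49.6, 43.9, 44.2, 18.04 and 60.8 CPM in lead 210 libraries A to E. All but library D of lead 210 lay above every lead 630 library. The log2 fold change of tm4sf20.L was -1.34 (95% interval -2.11 to -0.57), with 62.4 ± 31 CPM in controls. Its homeolog tm4sf20.S was at -0.68 (95% interval -1.21 to -0.14). Of 46 intestinal brush border genes, 8 were positive, the median was -0.134 and 5 had an unadjusted p under 0.05 on the lower side. Digestive enzymes of the brush border on that side were mep1a.L, a meprin protease, at -0.399 (-0.75 to -0.046), and anpep.L, aminopeptidase N, at -0.37 (-0.704 to -0.035). The lipoprotein gene apob.L had 5.86, 3.17, 5.87, 2.78 and 2.69 CPM at lead 630 and 8.697, 16.4, 7.45, 9.45 and 3.85 CPM at lead 210, a log2 fold change of -1.18 (95% interval -1.92 to -0.44), but the sum of its homeologs was at 0.115. The count of 5 was 2 without lead 210 library B, 3 without lead 630 B, D or E, 9 without lead 630 C, 10 without lead 630 A and 12 without lead 210 E. The 7 markers of intestine summed to between 459 and 679 CPM at lead 630 and between 554 and 723 CPM at lead 210, and their part in these results was not tested.

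Oxidases that make reactive oxygen at epithelial surfaces lay lower at lead 630 in the median. The gene noxo1.S, which organizes the oxidase NOX1, had 0.275, 0.414, 0.838, 0.544 and 0.497 CPM in lead 630 libraries A to E, against 1.74, 2.05, 0.958, 0.9997 and 3.71 CPM in lead 210 libraries A to E. The groups did not overlap, and the log2 fold change was -1.77 (95% interval -2.72 to -0.82). These are low counts: lead 630 library A lay at the floor of 3 counts, and the nearest values of the groups were 0.838 and 0.958 CPM. Controls averaged 4.59 ± 1.95 CPM, so the means ran downward from control through lead 210 to lead 630. The dual oxidase duox2.L had 1.55, 0.414, 1.84, 0.605 and 0.787 CPM at lead 630 and 3.04, 5.63, 1.401, 1.41 and 7.695 CPM at lead 210, with overlap, at -1.84 (95% interval -3.198 to -0.49). Controls averaged 5.72 ± 3.785 CPM for duox2.L. Lead 210 library E held the top value of noxo1.S and duox2.L, as it did for clca1.2.L and tm4sf20.L. The oxidase scores of the groups overlapped, at -0.188 ± 0.309 for lead 630, with library C at 0.317, and 0.188 ± 0.218 for lead 210 (SD, n = 5 each). Of the 11 measured members of this family (16 listed), 2 were on the lower side and 2 positive, and the median was -0.142. Leaving out any 1 library gave 3 on the lower side.

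Collagens had, with all libraries, the lowest family median: 2 of 55 measured members were positive and the median was -0.175. With single libraries left out that median ranged from -0.247 to -0.097, and other families lay lower in some of these settings, lens crystallins reaching -0.379 and NADPH and dual oxidases -0.313. Yet only 4 had an unadjusted p under 0.05, all on the lower side, and the scores of the groups overlapped, at -0.095 ± 0.154 for lead 630 and 0.095 ± 0.289 for lead 210 (SD, n = 5 each). The 4 were col17a1.L, a hemidesmosome collagen of skin, at -0.34 (-0.63 to -0.047), col3a1.S, a fibrillar collagen, at -0.25 (-0.47 to -0.030), col18a1.S of basement membranes at -0.16 (-0.31 to -0.008) and col8a1.S at -0.65 (-1.28 to -0.029). Cartilage collagen, col2a1, was at -0.099 (-0.35 to 0.15) for col2a1.L (edgeR quasi-likelihood adjusted p 0.937) and -0.23 (-0.61 to 0.14) for col2a1.S. Its levels were 699 ± 61.4 CPM at lead 630 and 748 ± 132 CPM at lead 210 for col2a1.L, with 1028 ± 150 CPM in controls. Lead 210 library E had the lowest collagen score, -0.347, and without it 21 members were on the lower side. The count was 9 with total-count scaling, 9 without lead 630 A, 7 without lead 630 B, 2 without lead 210 D and 1 without lead 630 D, lead 630 E or lead 210 B.

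Among 53 cartilage proteoglycan and skeletal genes, 7 were positive, the median was -0.164 and 3 were on the lower side. They included comp.L, a cartilage matrix protein, at -0.85 (95% interval -1.48 to -0.23), and the count was 8 without lead 630 A or lead 210 E and 1 without lead 630 B or D. With single libraries left out, the cartilage median ranged from -0.223 to -0.048, which was the value without lead 210 B. Of 43 keratins, 5 were on the lower side and 12 positive, with a median of -0.084. The abundant krt7.L had 989.5, 877, 995, 993 and 693 CPM at lead 630 and 1166, 1010, 1063, 1034 and 1084 CPM at lead 210, without overlap, at -0.24 (95% interval -0.44 to -0.033), and krt12.2.S was at -0.22 (-0.39 to -0.047). That count was 0 without lead 630 library E, 2 without lead 210 A or C and 3 without lead 210 E. Of 51 genes of ionocytes, the ion-pumping cells of tadpole skin, and of small secretory cells, 5 were on the lower side, with a median of -0.018. The proton pump subunit atp6v1c2.L was at -0.54 (-0.97 to -0.097), the ammonia transporters rhbg.L and rhbg.S at -0.303 (-0.56 to -0.043) and -0.19 (-0.36 to -0.013), and the carbonic anhydrase ca12.L, without overlap, at -0.34 (-0.66 to -0.018). That count was 2 without lead 630 E or lead 210 A, 3 without lead 630 B or D or lead 210 B, C or D, and 9 without lead 630 C.

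**Figure D4:**
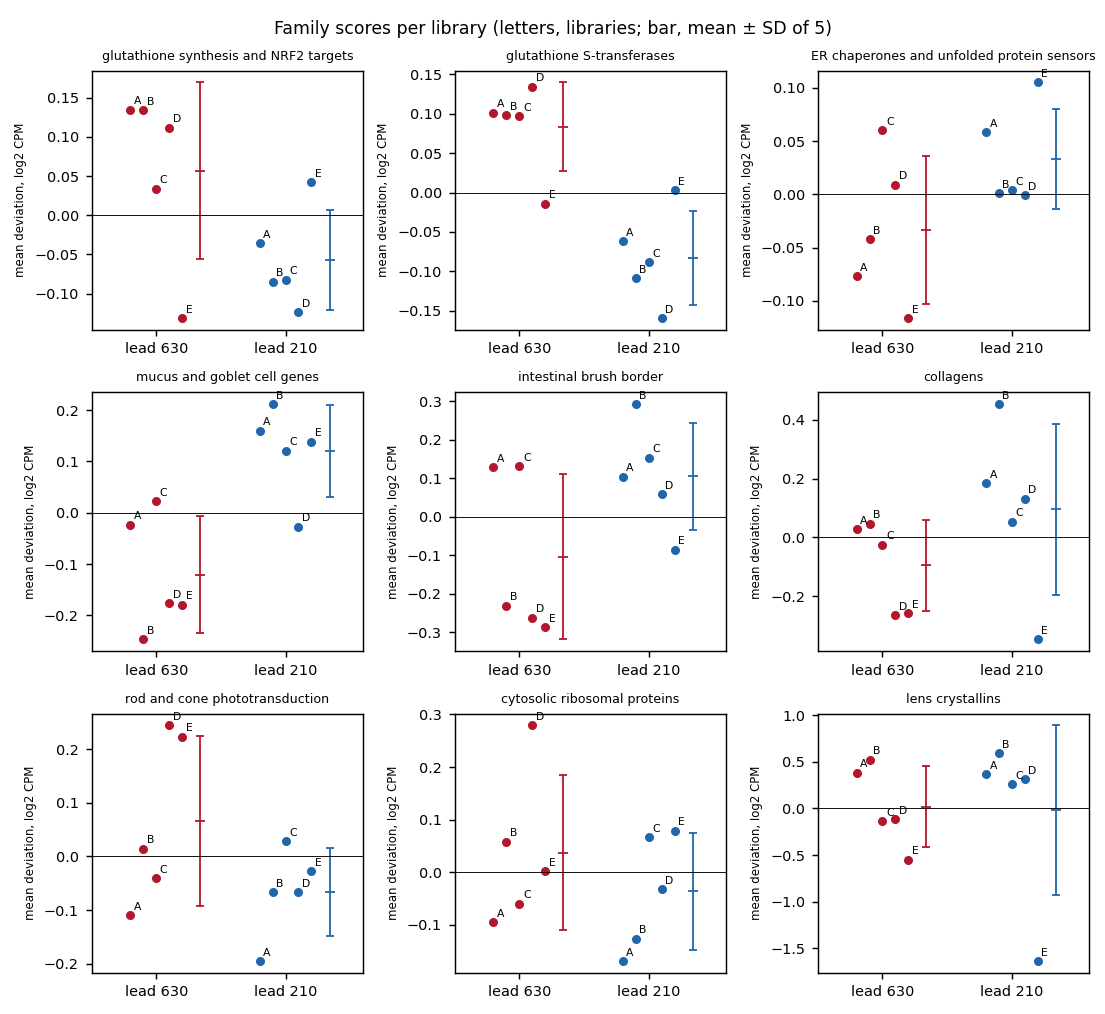
Family scores per library are plotted for 9 families, lead 630 left of lead 210, with the library letters, the mean and the SD; a score is the mean deviation of members' log2 CPM from their mean over the 10 libraries. The groups overlap in all 9 panels, and the lens crystallin score of lead 210 library E, -1.64, lies far below the rest.

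In the eye, genes of rod and cone phototransduction were on the higher side: 61 of 70 were positive, the median was 0.12 and 8 had an unadjusted p under 0.05, none of them lower. The cone channel subunit cnga3.L had 4.94, 5.18, 3.81, 5.201 and 5.09 CPM at lead 630 and 2.32, 3.58, 3.096, 3.499 and 4.25 CPM at lead 210, and its log2 fold change was 0.52 (95% interval 0.18 to 0.86). Its homeolog cnga3.S was at 0.44 (95% interval 0.15 to 0.74), without overlap, and the rod channel cnga1.S at 0.43 (0.090 to 0.77). Outer segment genes followed, with rp1.L at 0.64 (0.2 to 1.08) and prph2.L, a peripherin, at 0.23 (0.059 to 0.39). The phosphodiesterase pde6b.L and the guanylate cyclase gucy2d.L were at 0.29 (0.033 to 0.54) and 0.28 (0.033 to 0.52). Rhodopsin, rho.L, averaged 626 ± 92.4 CPM at lead 630 and 552 ± 61.6 CPM at lead 210, with 674 ± 106 CPM in controls and a log2 fold change of 0.18 (95% interval -0.060 to 0.42); rho.S was at 0.18 (-0.199 to 0.57). Lead 630 libraries D and E had the highest scores of the family, and the count of 8 was 5 without either of them or without lead 210 A, 12 without lead 630 B or C and 15 without lead 630 A. The visual cycle had 1 of 43 genes on the lower side, stra6.S, the retinol transporter, at -0.54 (95% interval -0.96 to -0.11), without overlap.

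Lens crystallins, the structural proteins of the lens, had no member with an unadjusted p under 0.05 among 86 measured, and 6 on the lower side without lead 210 library E. Their median was -0.144 with 20 positive, while the mean score was 0.021 ± 0.436 at lead 630 and -0.021 ± 0.913 at lead 210, so median and mean differed in sign. Lead 210 library E scored -1.64 beside 0.26 to 0.60 in the other lead 210 libraries, and the median was -0.379 without it and 0.006 without lead 210 library B. The smallest p was that of crygdl.14.L, a gamma crystallin, at -0.602 (95% interval -1.23 to 0.030). An interval within a 2-fold change was found for 44 of the 86 (51.2%), against 93.9% of all genes.

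Of 5 gene families of the nervous system, 4 had positive medians and glia and myelin a negative one. The median was 0.08 over 58 genes of synaptic vesicle release, 0.091 over 43 glutamate receptor genes, 0.074 over 38 genes of GABA and glycine signalling and 0.055 over 81 genes of calcium channels, pumps and buffers. The calcium median was -0.008 without lead 630 library E. These 4 families had 7 members with an unadjusted p under 0.05 on the higher side and 1 on the lower. On the higher side, synaptic vesicle release had 2 such members (3.45%, background 2.14%), 7 without lead 630 B and 1 without lead 630 D. Glutamate receptors had 1 (2.33%), 5 without lead 210 E and 0 without lead 630 D. GABA and glycine signalling had 2 (5.26%), 5 without lead 210 E and 1 without lead 630 E. Calcium genes had 2 (2.47%), 5 without lead 630 A and 1 without lead 630 B. The glutamate receptor subunit gria3.L was at 0.14 (0.002 to 0.27), the retinal GABA receptor subunit gabrr2.S at 0.33 (0.065 to 0.58) and the calcium buffer calb2.L at 0.19 (0.043 to 0.33). The member on the lower side was sv2c.L, a synaptic vesicle protein, with 4.85, 5.25, 4.02, 3.57 and 4.099 CPM at lead 630 and 7.32, 5.71, 5.82, 5.41 and 5.64 CPM at lead 210, without overlap, at -0.46 (95% interval -0.76 to -0.16). In glia, erbb3.S, the neuregulin receptor of Schwann cells, had 8.23, 8.77, 8.93, 8.41 and 6.04 CPM at lead 630 and 12.97, 12.6, 10.98, 9.997 and 10.5 CPM at lead 210, without overlap, at -0.499 (95% interval -0.77 to -0.23), the only 1 of 34 glial genes with an unadjusted p under 0.05. Of the 34 glia and myelin genes 13 were positive, and their median of -0.036 was 0.001 without lead 630 library C and 0.031 without lead 630 D.

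Mitosis genes lay higher at lead 630 in the median, by 0.11 over 113 genes, of which 82 were positive, 6 on the higher side and 1 on the lower. With single libraries left out, the median ranged from 0.044 to 0.138. The scores of the groups overlapped, at 0.033 ± 0.154 for lead 630 and -0.033 ± 0.113 for lead 210 (SD, n = 5 each). Lead 630 library A scored -0.198, the lowest of all 10. The mitotic kinase cdk1.S averaged 4.98 ± 0.671 CPM at lead 630 and 3.896 ± 0.744 CPM at lead 210, with 5.23 ± 0.639 CPM in controls, a log2 fold change between lead levels of 0.37 (95% interval 0.065 to 0.68); cdk1.L was at 0.18 (-0.11 to 0.46). The checkpoint gene mad2l1.L, the proliferation marker mki67.L and the topoisomerase top2a.L were at 0.57 (0.072 to 1.07), 0.22 (0.027 to 0.42) and 0.27 (0.007 to 0.53). The count of 6 was 2 without lead 630 B or C or lead 210 A or D, 10 without lead 630 A, 4 without lead 630 D or lead 210 E and 3 with total-count scaling. DNA replication had none of 95 on the higher side and 2 on the lower, including the maintenance methyltransferase dnmt1.L, without overlap, at -0.19 (95% interval -0.34 to -0.042). The apoptosis gene bax.S, a p53 target, had 2.93, 3.31, 3.73, 3.33 and 2.86 CPM at lead 630 and 5.001, 4.61, 3.54, 4.45 and 4.84 CPM at lead 210, at -0.47 (95% interval -0.77 to -0.17), 1 of 2 on the lower side among 53 p53 genes.

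Abundant housekeeping families had small medians and mostly positive members. Of 135 ribosomal protein genes, 133 were positive, with a median of 0.076 that ranged from 0.006 to 0.106 when single libraries were left out. Yet the scores of the groups overlapped, at 0.037 ± 0.147 for lead 630 and -0.037 ± 0.111 for lead 210 (SD, n = 5 each). Members were measured in the same libraries, so the 133 are not separate results. Only 1 had an unadjusted p under 0.05, on the higher side (0.741%, background 2.14%). The member with an unadjusted p under 0.05 was the scarce rps24.L, in which lead 630 library B had 8.35 CPM beside 0.456 to 0.605 CPM in the other lead 630 libraries and 0.439 to 0.725 CPM at lead 210; its log2 fold change of 1.85 became -0.056 without that library. Of 135 respiratory chain and ATP synthase genes, 121 were positive, with a median of 0.059. Their scores overlapped too, at 0.03 ± 0.074 for lead 630 and -0.03 ± 0.091 for lead 210, and 2 genes were on the higher side (1.48%). That count was 6 without lead 210 library D and 1 without lead 630 C. The gene uqcrh.S was at 0.25 (0.041 to 0.47). Proteasome subunits were positive in 67 of 82, with a median of 0.047 and overlapping scores, 0.03 ± 0.067 at lead 630 and -0.03 ± 0.025 at lead 210. On the higher side were 6 of these subunits (7.32%). Among them were psmd14.S, at 0.16 (0.034 to 0.29), and the activator psme1.S at 0.36 (0.049 to 0.67). The groups of psmd14.S did not overlap, but the nearest values were 25.33 CPM at lead 630 and 25.24 CPM at lead 210. The proteasome count of 6 was 1 without lead 210 A, 3 without lead 630 D or lead 210 C, and 3 with total-count scaling.

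In liver and metabolism few genes stood out. The tyrosine breakdown enzyme fah.L had 75.8, 71.99, 66.3, 81.6 and 68.1 CPM at lead 630 and 64.3, 60.8, 60.1, 58.3 and 65.8 CPM at lead 210, without overlap, at 0.23 (95% interval 0.1 to 0.37), with 25.7 ± 1.396 CPM in controls. The urea cycle enzyme arg1.L was at -0.52 (95% interval -0.94 to -0.102), and insig1.L, which restrains cholesterol synthesis, at -0.54 (95% interval -0.95 to -0.12). Of 74 plasma protein genes of the liver, 54 were positive, the median was 0.14 and 1 was on each side. Fatty acid oxidation had none of 105 on the higher side and 2 on the lower, and glycolysis 1 of 90 on the higher, hk1.L, a hexokinase, at 0.14 (0.004 to 0.28). Pancreatic enzymes, skeletal muscle, heart, histones and phagocytes had no member with an unadjusted p under 0.05 among 27, 101, 26, 16 and 80 measured. Without lead 630 library A, 3 skeletal muscle and 3 heart genes were on the higher side, and 3 phagocyte genes on the lower and 1 on the higher; without lead 210 E, 2 skeletal muscle genes were on the lower side, and without lead 630 E, 2 phagocyte genes on the higher. Among the smallest p-values of these families were those of prss12.L, a serine protease, at -0.29 (-0.62 to 0.042), ckm.S, muscle creatine kinase, at 0.397 (-0.047 to 0.84), nppb.S, a natriuretic peptide, at 0.46 (-0.14 to 1.07), and the chemokine cxcl14.L at -0.18 (-0.36 to 0.002). Among 67 genes of tRNA synthetases and amino acid supply, slc7a4.L was on the lower side at -0.19 (-0.36 to -0.021). Without lead 630 library A, 7 plasma protein genes were on the higher side. Without lead 630 D, 7 of fatty acid oxidation and 6 of glycolysis were, and without lead 210 E, 8 of fatty acid oxidation were on the lower. Without lead 630 E, plasma proteins and glycolysis had 0 on the higher side and fatty acid oxidation 0 on the lower. In kidney, the phosphate transporters slc34a3.L and slc34a3.S were at -0.42 (-0.7 to -0.14) and -0.602 (-1.06 to -0.14).

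In regulatory families few genes had an unadjusted p under 0.05. The cilium regulator ccno.S was without overlap at 0.68 (95% interval 0.14 to 1.22), 1 of 2 cilium genes on the higher side. The cilium count was 8 without lead 210 library C and 1 without lead 630 D. The gene neurod1.S, listed here with gut and islet hormones, was at 0.31 (95% interval 0.062 to 0.57). The cytokine inhibitor socs1.S was at 0.704 (95% interval 0.17 to 1.24), the steroid-induced zbtb16.L at 0.42 (0.058 to 0.79) and the oxygen sensor egln2.L at 0.201 (0.017 to 0.39). On the lower side were the clock gene arntl.S at -0.202 (-0.34 to -0.061), the immediate early gene ier3.L at -0.41 (-0.78 to -0.052) and the homeobox gene hoxa7.L at -0.71 (-1.22 to -0.19). Of 36 clock genes, 3 were on the lower side (8.33%, background 2.52%). Of 49 Hox genes, 2 were on the higher side (4.08%, background 2.14%) and 1 on the lower (2.04%). With all libraries, none of these families had more than 3 members with an unadjusted p under 0.05 in either direction. Without lead 210 E, 5 gut and islet hormone genes were on the higher side, without lead 630 C, 4 clock genes on the lower, and without lead 630 A, 4 hypoxia genes on the lower. The hormone count was 1 without lead 630 D, and the clock count 1 without lead 630 B.

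**Figure D5:**
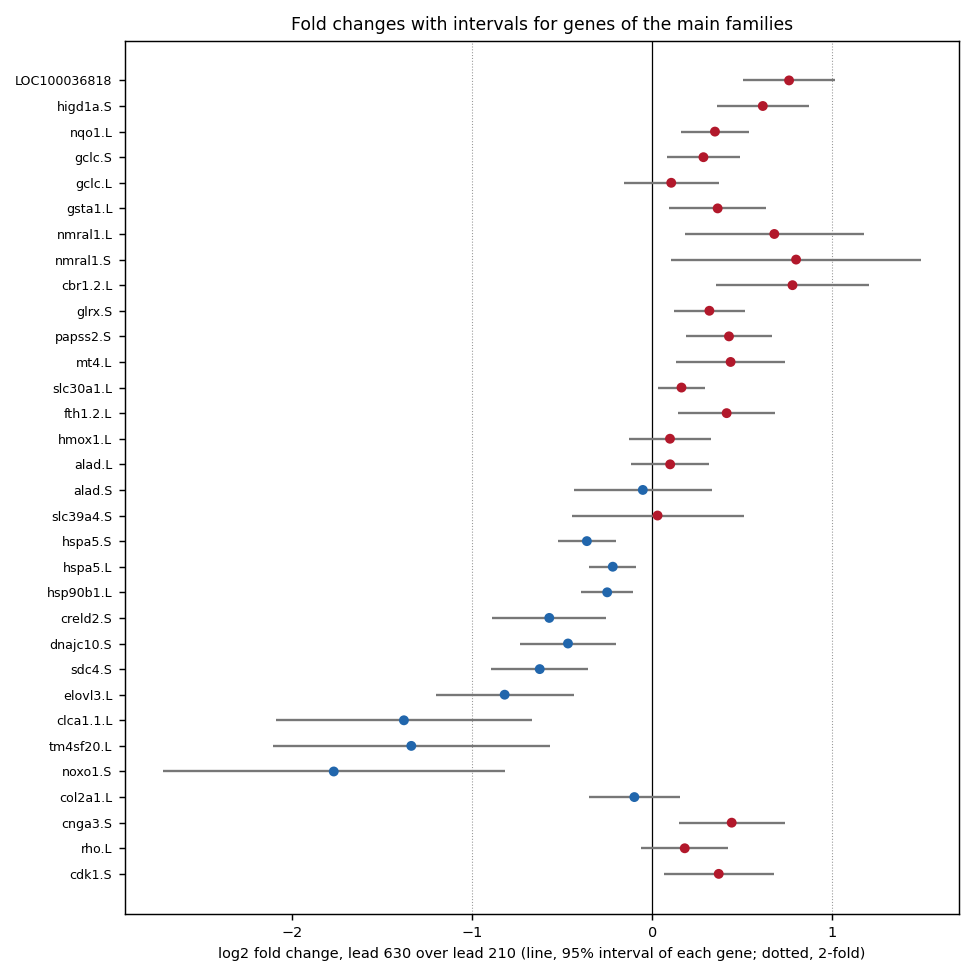
Log2 fold change, lead 630 over lead 210, with its 95% interval (not adjusted for the number of genes) is drawn for 32 genes, picked after their values were seen; red points are positive and blue points negative, and dotted lines mark a 2-fold change either way. For hspa5.S the interval runs from -0.52 to -0.20 and for nqo1.L from 0.16 to 0.54, both inside the 2-fold lines, while that of clca1.1.L, from -2.09 to -0.67, crosses the lower line.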

How the data were processed

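The members and gene lists were chosen with earlier results of these data known. The authors deposited raw read counts per Entrez gene, with no normalization, for 37018 genes, of which 3220 had no count. Comparison tables that the authors deposited (a log2 fold change, a mean log2 level, a p-value and a test score, the likelihood ratio, for each gene) were read only for gene names and descriptions. A directional kit was used on poly(A) RNA, with 250 ng of total RNA as input, per the labels' protocols. The submitters' processing notes name edgeR, HISAT2, Trim Galore and kallisto. The genome build, read counter and strand setting, not given in the sources used here, leave overlapping and near-identical genes uncertain, and no coordinates or sequences are given. Symbols came from the RefSeq table of assembly Xenopus_laevis_v10.1 (33597 genes) or the authors' deposited tables (1468); 1953 genes stayed unnamed.

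The edgeR package (4.0.16, R 4.3.3) was run on the counts with filterByExpr, TMM scaling (factors 0.977 to 1.03), and 1 robust quasi-likelihood fit over all 15 libraries with group as the only term (biological coefficient of variation 0.142). Benjamini-Hochberg adjustment covered all 27060 genes tested, and 95% Wald intervals came from the same fit. Family scores and principal components used log2 CPM with a prior count of 2. No set test was run. The chi-square per gene between libraries of a group was 4.24 to 17, so none was a duplicate. The procedure was run on simulated counts drawn independently for each gene and library. Such counts hold no shift of a library shared by many genes, so they do not test the family counts.

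Named genes were, where none passed the threshold, the 6 smallest p-values each way with an established symbol and at least 1 CPM, the smallest p of each family described, and, whatever their p, mt4, alad, hmox1, gclc, gstp1, nmral1, fth1.2, slc30a1, slc39a4, hspa5, hsp90b1, me1, col2a1, cdk1, rho, slc22a6 and ugt1a1; others were chosen after their values were seen, and a few genes are not reported here. Alternatives were other filters, DESeq2's size factors, total counts, DESeq2 1.42.0, limma-voom (limma 3.58.1), each library left out in turn, homeologs added together, a block for the replicate letter, and a fit of the lead libraries alone.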

Additional observations from a re-analysis of the deposited data

Results flagged for a closer look

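Within each group of 5 libraries, a library was marked when its gap to the nearest other exceeded 0.71 of the group's range (Dixon's 95% value for 5). This marked 24 of 330 gene groups and 6 of 126 family score groups, where chance marks about 1 in 20. No explanation was tested.

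Lead 210 library E stood apart most often. It was high for gclm.L (158.6 CPM, the others 79.8 to 91.0), gsta1.L (74.6 CPM, the others 44.7 to 48.6), gclc.L (33.7 CPM, the others 20.9 to 22.9), txn.L (157 CPM, the others 95.4 to 106), xbp1.L (107 CPM, the others 79.1 to 86.0) and alad.L (16.1 CPM, the others 13.7 to 14.3). It was also high for XB5953480.L (54.2 CPM, the others 2.73 to 13.6) and st8sia6.L (3.78 CPM, the others 1.91 to 2.32). It was low for cyp4b1.2.L (37.2 CPM, the others 42.9 to 44.7) and for the lens crystallin score (-1.64 log2 CPM, the others 0.26 to 0.60).

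Of the lead 630 libraries, each stood apart at least once. Library B was high for rps24.L (8.35 CPM, the others 0.456 to 0.605) and txnrd1.L (21.1 CPM, the others 15.6 to 17.1). Library A was high for comp.L (3.02 CPM) and txnrd1.S (15.5 CPM). Library C was high for slc39a4.S (19.8 CPM) and low for cnga3.L (3.81 CPM). Library E was low for otogl2.L (249.8 CPM, the others 347 to 379), erbb3.S (6.04 CPM) and the glutathione S-transferase score (-0.014), and high for the scores of GABA and glycine signalling (0.18) and calcium channels, pumps and buffers (0.144). Library D was low for the scores of aminoacyl-tRNA synthetases (-0.102) and glycolysis (-0.166).

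At lead 210, library A was high for gstt1.L (352 CPM) and sv2c.L (7.32 CPM) and low for pde6b.L (41.4 CPM). Library B was high for akr1c2.L (211 CPM, the others 94.4 to 124), library C was high for neurod1.S (20.1 CPM), and library D was low for hpgds.S (96.9 CPM) and high for slc30a2.L (4.91 CPM).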

How the results depend on the processing

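DESeq2 called 2 genes higher and 4 lower, where edgeR's quasi-likelihood test called 0. Leaving out single libraries gave 0 to 1 genes called higher, the 1 being LOC100036818 without lead 630 library E, and 0 called lower in all. Every other alternative run gave 0 in both directions. Genes with an unadjusted p under 0.05 numbered 1260, and 2173 without lead 210 E, 1972 without lead 630 A, 848 without lead 630 E, 835 without lead 210 A and 886 without lead 210 B. A fit with the replicate block called 0 genes either way, with 2108 (7.79%) at an unadjusted p under 0.05. With it, 15 collagen genes (4 without it), 10 cartilage genes (3) and 8 cytochromes P450 (2) were on the lower side and 16 phototransduction genes (8) on the higher. The labels do not say whether a letter marks a shared batch. Same-letter libraries correlated by -0.135 to 0.325, over 0.1 in 3 of 5 pairs, and different-letter libraries by -0.331 to 0.293. The rule used asked for over 0.1 in every same-letter pair, so the letters were not taken as pairs. This rule does not settle whether the letters carry an effect.

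Of 3130 values of 165 genes under alternatives, 3096 kept their sign and side of the threshold, 7 passed the threshold and 27 changed sign. Most of these genes were picked for their p or after their values were seen, and the alternatives reuse the same counts. Their agreement is therefore no independent measure of how firm the values are. Not every named gene is among the 165, mtf1.L and nppb.S being left out. Medians of families near 0 changed sign, those of visual cycle and hypoxia genes under 7 of 18 alternatives each; lens crystallins reached 0.006 and pancreatic enzymes -0.043. With homeologs summed, the log2 fold change was -0.016 for gpx1.S, 0.115 for apob.L, -0.006 for alad.L, 0.096 for txnrd1.S, 0.006 for calr.L and -0.006 for agr2.L. With the replicate block slc39a4.S was at -0.026, and with total counts atf4.L was at -0.007. Leaving out single libraries, the log2 fold change ranged from -0.056 to 2.139 for rps24.L, -0.19 to 0.107 for slc39a4.S, -0.13 to 0.066 for alad.S, -0.127 to 0.03 for txnrd1.S, -0.09 to 0.001 for nfe2l2.L, -0.027 to 0.043 for atf4.L, -0.105 to 0.053 for xbp1.L, -0.062 to 0.103 for agr2.L and -0.096 to 0.028 for agr2.S. The cause was not tested for any of these. With 5 pools a group, a difference could be bounded within 1.5-fold for 20433 of 27060 genes and not for the others.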
